A study of Mus musculus with 4 samples.

Results

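The genes described here are 10 transcription factors that specify and mature the oligodendrocyte lineage: Olig1, Olig2, Sox10, Sox8, Sox6, Nkx2-2, Myrf, Tcf7l2, Zfp488 and Nkx6-2. They were taken by symbol from a table of 54348 genes, and each symbol named 1 gene. Of the 10, 9 were among the 12871 genes tested, which had at least 1 TPM in at least 2 of 4 libraries. TPM is a transcript level per length, scaled to the same total in each library. Nkx6-2 stayed below that level and was not tested.

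The RNA came from live, tdTomato-positive cells sorted from the forebrains of pups at postnatal day 4. All pups carried PdgfraCreER, a tamoxifen-activated recombinase driven by Pdgfra, and AI14, a reporter that makes tdTomato once recombined, and all received tamoxifen on days 0 and 1. The control group (2 libraries) had the genotype PdgfraCreER;AI14, and the fusion group (2 libraries) PdgfraCreER;MN1:BEND2;AI14, with the astroblastoma fusion gene MN1:BEND2 added. The comparison asks what the fusion gene does to cells in which Pdgfra had been active, together with their descendants, so a sorted sample can hold more than 1 cell type. The markers of oligodendrocyte precursors were present in every library, with a summed level of 1061 and 1302 TPM in control and 363 and 482 TPM in fusion libraries.

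Oligodendrocytes make the myelin of the brain and arise from dividing precursor cells. Olig2 and Olig1 are basic helix-loop-helix factors that set the lineage, Sox10 and Sox8 are SoxE factors that turn on its genes, and Sox6 is a SoxD factor of the precursor state that holds back maturation. Nkx2-2, Tcf7l2, Zfp488 and Myrf act as precursors become myelin-forming cells, with Myrf switching on the genes of myelin itself.

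Differences between whole libraries touch every result. Mitochondrially encoded genes held 10.1% and 7.30% of TPM in control and 48.7% and 26.2% in fusion libraries, and the genes with at least 1 TPM numbered 12772 and 13219 against 9050 and 10017. Over all tested genes the median log2 change, fusion minus control on the log2(TPM + 1) scale, was -1.41. The changes of the factors are therefore also given after median ratio scaling, which brought that median to -0.15. The Y-linked gene Eif2s3y had 121 and 122 TPM in the controls and was listed at 0 for each fusion library, so sex and genotype cannot be told apart. For Bend2, the controls were listed at 0 and the fusion libraries had 3.82 and 8.72 TPM. Summed markers of microglia and macrophages were 92.7 and 55.5 TPM in control and 158 and 234 TPM in fusion libraries. Of 9 tested, 3 were higher and 2 lower, beside 4.95% higher and 51.3% lower over all tested genes. P2ry12, among the 2 lower, was listed at 0 in both fusion libraries and was tested only through the controls, where it is high. Summed fibroblast markers were 47.8 and 125 TPM against 491 and 976 TPM, and Mgp alone had 364 and 717 TPM in fusion libraries. Of 8 fibroblast markers tested, 4 were higher, beside 4.95% of all tested genes, and none lower. Foxc1 and Foxd1, among the 4, reached 1 TPM in fusion libraries only and so were tested through the group where they are high. Summed astrocyte markers were 228 and 281 TPM against 33.4 and 65.1 TPM. Neuronal ones were 206 and 202 TPM against 50.6 and 34.1 TPM. In each list 4 of 6 tested markers were lower, beside 51.3% of all tested genes. Of the neuronal ones, Syt1 was tested only through the controls, where it is high. After scaling 1 astrocyte marker was lower and 1 higher, and 2 neuronal markers were lower and 0 higher. Of the microglia markers 4 were then higher and 0 lower, and of the fibroblast markers 7 higher and 0 lower. Over all tested genes 18.6% were then lower and 14.3% higher. Endothelial and ependymal markers summed to at most 5.88 TPM in a library. The part of these measures in the results below was not tested. In sorted bulk cells, fewer cells of a type and less RNA per cell cannot be told apart.

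Most of the factors were lower with the fusion, as most genes were. Of the 9 tested, 7 fell (Sox6, Sox8, Zfp488, Sox10, Nkx2-2, Tcf7l2 and Myrf), 0 rose, and Olig1 and Olig2 did not pass (limma, adjusted p under 0.05). Over all tested genes 51.3% were called lower and 4.95% higher, so a fall was the common outcome in these libraries. Myrf reached 1 TPM in control libraries only and so was tested through the group where it is high. With a filter of a mean of at least 5 TPM, which left Myrf out, 6 of 8 factors fell, as did 4444 of 7688 genes. In all 9 tested factors, Myrf among them, both fusion libraries lay below both control libraries, which held for 71.1% of all tested genes. The factors summed to 708 and 978 TPM in control and to 147 and 196 TPM in fusion libraries. Their median log2 change was -1.93.

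After median ratio scaling, which divides each library by its median ratio to a common reference, 1 of the 9 was lower (Sox6), 0 were higher and 8 did not pass. The background was then 18.6% lower and 14.3% higher. Both fusion libraries stayed below both control libraries for Sox10, Sox8, Sox6, Myrf and Zfp488 (a pattern of 38.8% of all tested genes), and lay above them for Olig1 and Olig2 (31.3%). The median change of the 9 factors was then -0.71. Without control replicate 1, and also without control replicate 2, 1 of the 9 factors passed, which was Myrf both times (adjusted p = 0.0330 and 0.0405, limma). Myrf reached 1 TPM in control libraries only, so it was tested only because of the group in which it is high, and its calls support nothing here.

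**Figure D1:**
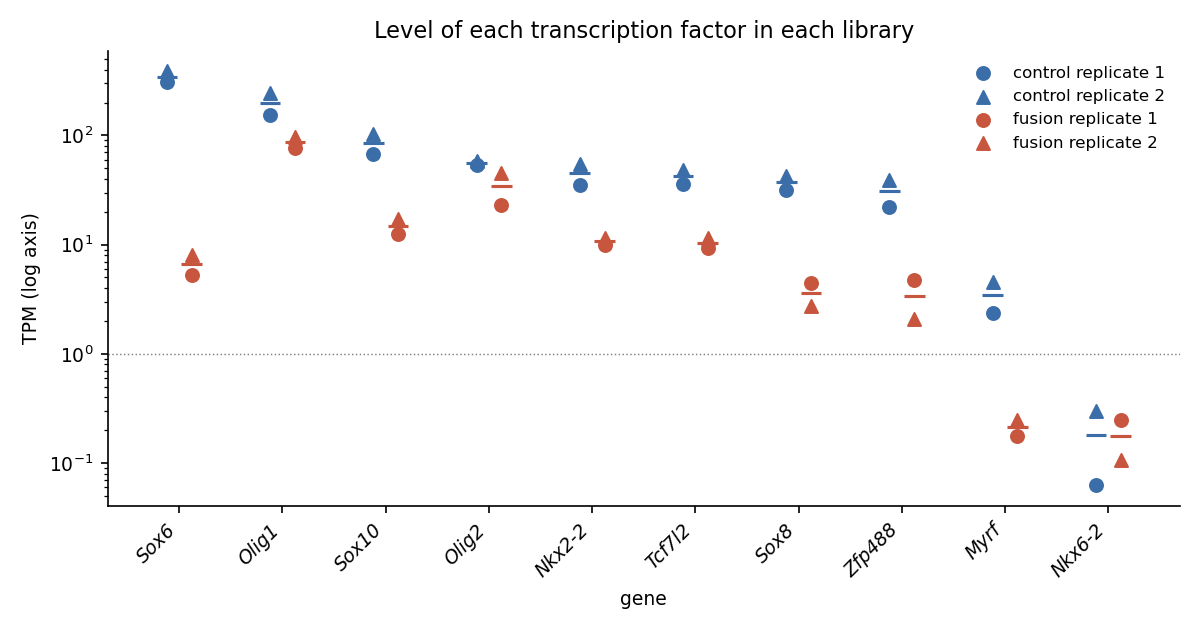
TPM of each factor in the 4 libraries on a log axis, with control in blue and fusion in red, short bars for the group means and a dotted line at 1 TPM. Sox6 fell from 306 and 385 TPM to 5.28 and 8.10 TPM, and Nkx6-2 lay below 1 TPM in every library.

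Promoters are shown for the tested factors with a RefSeq promoter that had the largest and the smallest fitted change (Sox6 and Olig2) and for Zfp488, whose promoter held a motif as that of Sox6 did. They were chosen after the values were seen. RefSeq (GRCm38.p6) held a promoter for 7 of the 10 genes. It listed 6 for Sox6 and 2 for Tcf7l2, of which 1 each was used. The start used for Nkx2-2 lies 7841 bases inside the gene location given below. Each promoter shown is printed 5′ to 3′ on the strand of its gene, from 250 bases before the start to 30 after it. Capitals mark a motif: ACAAAG is a core of SOX sites and CAGCTG is a palindromic E-box, the kind of site that helix-loop-helix factors bind.
Sox6: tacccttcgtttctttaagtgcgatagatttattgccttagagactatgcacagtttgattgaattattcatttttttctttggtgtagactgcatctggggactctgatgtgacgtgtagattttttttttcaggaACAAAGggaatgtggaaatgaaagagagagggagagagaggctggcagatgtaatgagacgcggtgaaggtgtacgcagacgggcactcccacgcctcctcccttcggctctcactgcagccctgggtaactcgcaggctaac
Zfp488: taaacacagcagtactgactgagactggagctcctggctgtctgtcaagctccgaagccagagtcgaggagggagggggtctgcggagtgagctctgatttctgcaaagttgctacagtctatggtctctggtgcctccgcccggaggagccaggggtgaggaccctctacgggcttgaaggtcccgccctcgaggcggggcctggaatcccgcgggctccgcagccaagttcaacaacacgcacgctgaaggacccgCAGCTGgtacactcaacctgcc
Olig2: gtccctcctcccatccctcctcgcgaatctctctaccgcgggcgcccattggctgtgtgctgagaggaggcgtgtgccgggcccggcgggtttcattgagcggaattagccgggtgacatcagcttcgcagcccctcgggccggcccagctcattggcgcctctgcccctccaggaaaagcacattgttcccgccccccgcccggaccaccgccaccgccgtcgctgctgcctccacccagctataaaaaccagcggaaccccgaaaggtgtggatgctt
The Sox6 stretch is chr7:116038715-116038994 on the minus strand, that of Zfp488 is chr14:33978735-33979014 on the minus strand, and that of Olig2 is chr16:91225300-91225579 on the plus strand. ACAAAG begins at base -113 of the Sox6 promoter, counted from the start, and CAGCTG begins at base 8 of the Zfp488 window, counting the start as 0. Motifs were searched on both strands of the full 300-base windows, with CTGGCAC as a MYRF motif added. ACAAAG shares CAAAG with ATCAAAG, a site of Tcf7l2. Among 32851 promoters of that length 18.7% held ACAAAG, 16.3% CAGCTG and 5.01% CTGGCAC. The windows of Olig2, Sox8, Nkx2-2, Tcf7l2 and Nkx6-2 held none of the 3.

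The founding pair, Olig2 and Olig1, did not pass. Locations here and below are in GRCm38. Olig2 (ENSMUSG00000039830.9, chromosome 16, 91225457 to 91228677, plus strand), without which oligodendrocyte precursors do not form, had 54.0 and 58.2 TPM in control and 23.1 and 45.5 TPM in fusion libraries. The fusion libraries were lower, with a gap between them larger than that between the control libraries. The log2 change was -0.77 ± 0.44 (SE, 95% interval -1.89 to 0.35, adjusted p = 0.187, limma), which did not pass. After scaling the values were 30.3 and 28.1 against 50.4 and 65.8 scaled TPM, a change of 0.96 (95% interval 0.20 to 1.71, adjusted p = 0.0624), so the direction turned.

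Olig1 (ENSMUSG00000046160.6, chromosome 16, 91269772 to 91271933, plus strand), which acts in maturation and in repair of myelin, lies 41094 bases beyond Olig2. It had 153 and 242 TPM in control and 77.2 and 96.7 TPM in fusion libraries, again with no overlap of the groups. The log2 change was -1.15 ± 0.39 (SE, 95% interval -2.13 to -0.17, adjusted p = 0.0517, limma; 0.0470 with a pseudocount of 5), and 57.8% of tested genes had a lower one. After scaling the change was 0.61 (95% interval -0.13 to 1.36, adjusted p = 0.166), also turned. Without fusion replicate 2 the log2 change was -1.31 for Olig1 and -1.25 for Olig2. Without fusion replicate 1 it was -0.99 for Olig1 and -0.30 for Olig2. Leaving out control replicate 1 gave -1.48 and -0.82 in that order, and leaving out control replicate 2 gave -0.82 and -0.72.

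The 3′ end of Olig1 shares 157 bases with Gm15966, a long noncoding RNA gene on the other strand. Gm15966 had 2.07 and 4.49 TPM in control and 24.3 and 11.4 TPM in fusion libraries, a rise of 2.11 ± 0.57 on the log2 scale (SE, adjusted p = 0.0280, limma) and of 3.55 after scaling (adjusted p = 0.0209). The labels state no strand-specific kit, so reads of Olig1 and Gm15966 from the shared bases cannot be told apart.

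Both SoxE factors fell. Sox10 (ENSMUSG00000033006.10, chromosome 15, 79154908 to 79165240, minus strand), which activates Myrf and the genes of myelin, had 67.8 and 102 TPM in control and 12.4 and 17.3 TPM in fusion libraries. Its log2 change was -2.43 ± 0.40 (SE, adjusted p = 0.00715, limma). After scaling it was -0.71 (95% interval -1.48 to 0.06, adjusted p = 0.13), with the fusion libraries still the lower ones.

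Sox8 (ENSMUSG00000024176.10, chromosome 17, 25565892 to 25570686, minus strand), a close relative of Sox10 with shared tasks, had 31.3 and 42.9 TPM in control and 4.49 and 2.72 TPM in fusion libraries. The change was -3.06 ± 0.44 (SE, adjusted p = 0.00517, limma), and after scaling -1.46 (95% interval -2.78 to -0.14, adjusted p = 0.0867). Its first exon shares 329 bases with Cerox1, a noncoding gene on the other strand with 397 and 406 TPM in control and 24.8 and 56.0 TPM in fusion libraries. Cerox1 fell by 3.39 on the log2 scale (SE 0.47, adjusted p = 0.00496, limma), and its scaled change was -1.64 (adjusted p = 0.0202). As for Olig1, reads of the shared bases cannot be told apart.

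Sox6 fell by more than any other of the 9 factors in this fit. Sox6 (ENSMUSG00000051910.13, chromosome 7, 115470872 to 116038796, minus strand) had 306 and 385 TPM in control and 5.28 and 8.10 TPM in fusion libraries. The group means were 346 ± 55.9 and 6.69 ± 2.00 TPM (SD, n = 2), which leaves 1.94% of the control level, or a 51.7-fold fall. The log2 change was -5.51 ± 0.38 (SE, 95% interval -6.47 to -4.55, adjusted p = 0.00367, limma). It lay at -4.10 relative to the median of all tested genes, and 61 of the 12871 tested genes had a lower change.

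Scaling did not end the call of Sox6. The values were then 172 and 186 against 11.5 and 11.7 scaled TPM, a change of -3.83 (95% interval -4.50 to -3.16, adjusted p = 0.0108). It passed in 14 of 16 alternatives, with changes of -5.78 to -3.83. The exceptions were the fits without control replicate 1 (adjusted p = 0.0521, limma) and without control replicate 2 (adjusted p = 0.0611). Sox6 was the most abundant of the 10 in both control libraries, at 43.2% and 39.4% of their summed TPM, and held 3.59% and 4.14% in fusion libraries, where Olig1 held 52.5% and 49.4%.

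**Figure D2:**
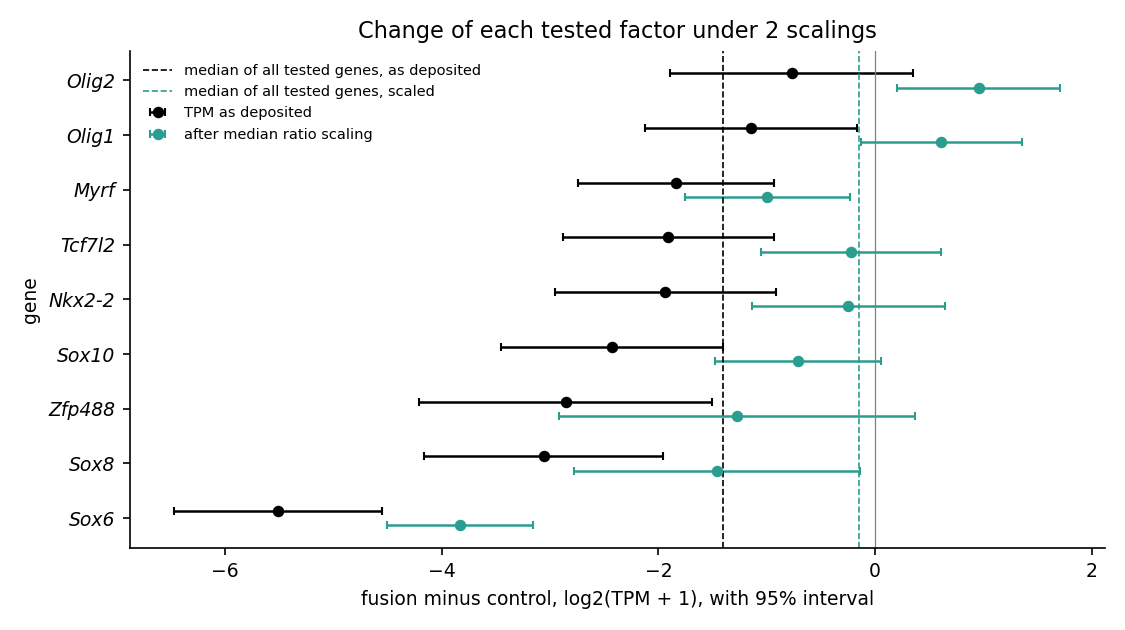
Fitted log2 changes, fusion minus control on the log2(TPM + 1) scale, with 95% intervals for the 9 tested factors before and after median ratio scaling, and dashed lines at the median of all tested genes in each. The interval of Sox6, -6.47 to -4.55, lies left of both medians, and the scaled value of Olig2 is 0.96.

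Of the homeobox factors, Nkx2-2 fell and Nkx6-2 stayed under 1 TPM. Nkx2-2 (ENSMUSG00000027434.11, chromosome 2, 147177546 to 147194243, minus strand), which times the start of differentiation, had 35.3 and 54.7 TPM in control and 9.99 and 11.6 TPM in fusion libraries. It fell by 1.93 on the log2 scale (SE 0.40, adjusted p = 0.0128, limma). After scaling the change was -0.25 (adjusted p = 0.619) and the groups overlapped. Nkx2-2os, on the other strand, shares 278 exonic bases with it and had at most 0.899 TPM in a library. Nkx6-2 (ENSMUSG00000041309.17, chromosome 7, 139579376 to 139582797, minus strand), a factor of mature oligodendrocytes, had 0.0626 and 0.299 TPM in control and 0.248 and 0.106 TPM in fusion libraries. Its groups overlapped at a level too low to compare.

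Of the factors of maturation, Myrf was the least abundant. Myrf (ENSMUSG00000036098.15, chromosome 19, 10208272 to 10240748, minus strand), a membrane-bound factor that cleaves itself to enter the nucleus, had 2.38 and 4.57 TPM in control and 0.175 and 0.250 TPM in fusion libraries. The means were 3.47 ± 1.55 and 0.213 ± 0.0532 TPM (SD, n = 2), a 16.3-fold fall. At this low level the pseudocount of 1 shrinks the log2 change to -1.84 ± 0.36 (SE, adjusted p = 0.0107, limma), and with a pseudocount of 0.1 it was -3.45. With no filter on low values it did not pass (adjusted p = 0.0657). After scaling the change was -0.99 (95% interval -1.76 to -0.23, adjusted p = 0.0579).

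Zfp488 (ENSMUSG00000044519.8, chromosome 14, 33967070 to 33978764, minus strand), a zinc finger partner of Olig2 that promotes differentiation, had 22.2 and 39.1 TPM in control and 4.76 and 2.08 TPM in fusion libraries. The change was -2.86 ± 0.53 (SE, adjusted p = 0.00952, limma), and -1.28 after scaling (95% interval -2.92 to 0.37, adjusted p = 0.186). Tcf7l2 (ENSMUSG00000024985.20, chromosome 19, 55741820 to 55933654, plus strand), the Wnt-pathway factor of newly formed oligodendrocytes, had 35.7 and 48.6 TPM in control and 9.39 and 11.4 TPM in fusion libraries. It fell by 1.91 on the log2 scale (SE 0.38, adjusted p = 0.0117, limma), but the scaled change was -0.22 (adjusted p = 0.630) with overlapping groups.

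The order of the factors by TPM, which is per length, differed between the groups. In the control libraries it ran Sox6, Olig1, Sox10, Olig2, each below the range of the one before. Nkx2-2, Tcf7l2, Sox8 and Zfp488 followed with ranges that overlapped from neighbour to neighbour, and then Myrf and Nkx6-2, each below the one before. In the fusion libraries Olig1, Olig2 and Sox10 led, each below the one before. Nkx2-2 and Tcf7l2 overlapped, Sox6 came after them, then Sox8 and Zfp488, which overlapped, and Myrf and Nkx6-2, which overlapped too.

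A rank within 1 library does not move with the scale of that library. By percentile among the tested genes, Sox6 lay at 94.8 and 96.0 in control and at 66.4 and 67.8 in fusion libraries. Sox8 went from 73.6 and 76.3 to 62.9 and 44.9, and Zfp488 from 67.7 and 74.8 to 64.1 and 39.3. Olig2 stood higher in fusion libraries, at 86.8 and 88.8 against 80.7 and 80.4. The ranks of Olig1, Nkx2-2 and Tcf7l2 overlapped between the groups.

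**Figure D3:**
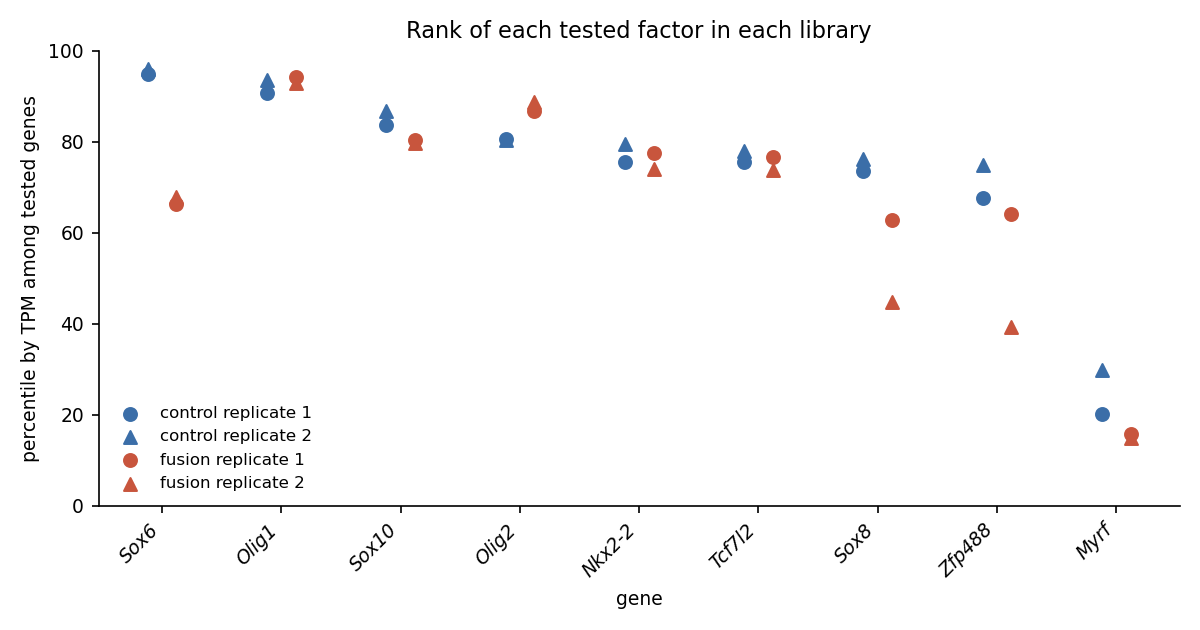
Percentile by TPM of each tested factor among the tested genes of each library, control in blue and fusion in red. Sox6 stood at 94.8 and 96.0 in control and at 66.4 and 67.8 in fusion libraries, while Olig2 stood at 80.7 and 80.4 in control and 86.8 and 88.8 in fusion libraries.

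Ratios of a pair of factors in 1 library are also free of its scale. With 2 libraries against 2 an exact test cannot give a p below 0.333, so these are values with no test. Of 9 ratios, 7 were lower in both fusion libraries, 1 was higher and 1 overlapped. Over all other tested genes, the ratio to Olig2 was lower in both fusion libraries for 57.4%, and the ratio to Sox10 for 25.9%. Sox6 to Sox10 was 4.52 and 3.77 in control and 0.425 and 0.468 in fusion libraries. Sox6 thus went from above Sox10 to below it in every library of its group.

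Within the Olig pair the ratio did not part the groups: Olig1 to Olig2 was 2.83 and 4.16 in control and 3.35 and 2.12 in fusion libraries. Sox10 to Olig2 was 1.25 and 1.75 against 0.537 and 0.380. Myrf to Sox10, the factor to its activator, was 0.0351 and 0.0447 against 0.0141 and 0.0145. It is among the 7 lower ratios, but it rests on Myrf levels of 0.175 and 0.250 TPM in fusion libraries. Sox8 to Sox10 was 0.462 and 0.420 against 0.362 and 0.157.

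Factors of maturation were set beside Olig2, where a lower ratio was the common outcome over all genes. Nkx2-2 to Olig2 was 0.653 and 0.939 in control and 0.433 and 0.254 in fusion libraries. Tcf7l2 to Olig2 was 0.660 and 0.834 against 0.407 and 0.251. Zfp488 to Olig2 was 0.410 and 0.672 against 0.206 and 0.0456. The ratio that was higher, Nkx6-2 to Nkx2-2, rests on Nkx6-2 levels under 1 TPM.

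Ratios to Pdgfra, the gene that drives the recombinase, are given as values only. These ratios were added after the values were seen. How often other genes had a lower or higher ratio to Pdgfra was not counted. The change of Pdgfra lay near the median of all tested genes, so these ratios are not read as a result about the factors. Pdgfra itself had 337 and 429 TPM in control and 123 and 192 TPM in fusion libraries, a log2 change of -1.30 ± 0.38 (SE, adjusted p = 0.0358, limma) that was 0.46 after scaling. Pdgfra did not pass with no filter (adjusted p = 0.0818), without mitochondrially encoded and ribosomal protein genes (0.0702), or without control replicate 1 (0.192) or control replicate 2 (0.276). Sox6 to Pdgfra was 0.909 and 0.897 in control and 0.0427 and 0.0422 in fusion libraries. Sox10 to Pdgfra was 0.201 and 0.238 against 0.10 and 0.0902. Olig2 to Pdgfra was higher in fusion libraries, at 0.187 and 0.237 against 0.160 and 0.136, and Olig1 to Pdgfra overlapped.

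**Figure D4:**
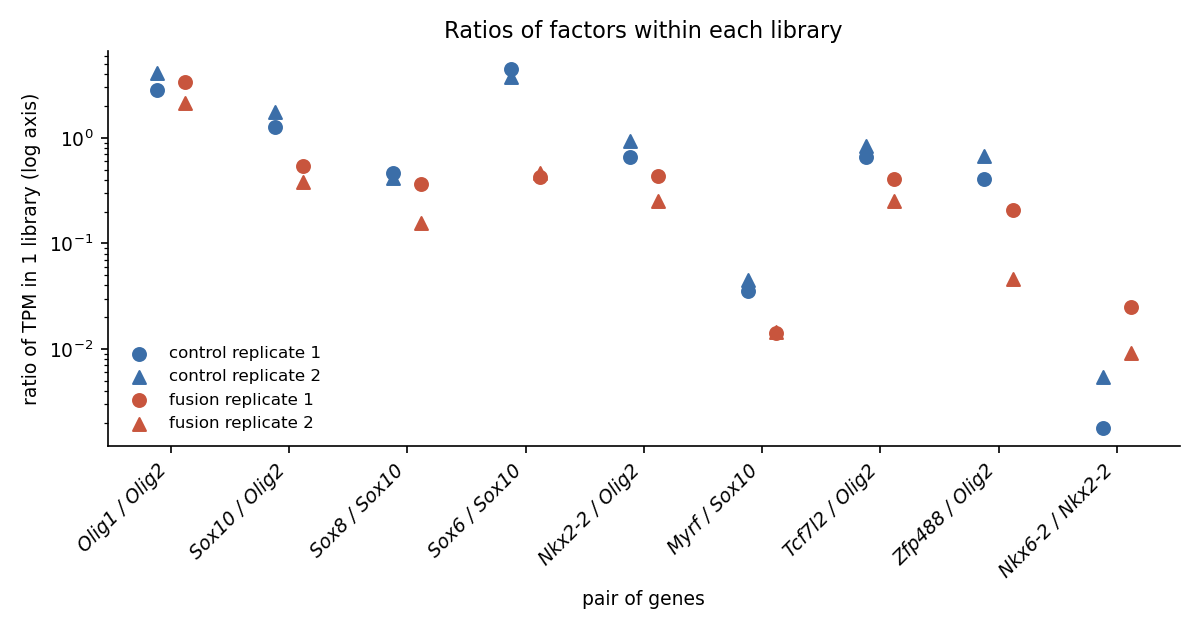
Ratio of TPM of pairs of factors in each library on a log axis, control in blue and fusion in red. The ratios to Pdgfra are not drawn. Sox6 to Sox10 was 4.52 and 3.77 in control and 0.425 and 0.468 in fusion libraries, while the Olig1 to Olig2 ratios overlapped.

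Genes on which these factors are known to act were called lower before scaling, where tested. Whether this follows from the fall of the factors was not tested. Of 20 target genes 15 were tested, and all 15 fell, with a median log2 change of -2.82 beside -1.41 for all tested genes, of which 51.3% fell. Of the 15, 3 (Mog, Gjb1 and Erbb3) reached 1 TPM in control libraries only and so were tested through the group where they are high. After scaling 7 of the 15 were lower and 0 higher, beside 18.6% lower and 14.3% higher over all tested genes. Of the 8 that did not pass, Ugt8a and Pdgfra turned in sign (0.46 for each). The scaled median of the 15 was -1.12, beside -0.15 for all tested genes. Without control replicate 1, 3 genes of these targets and the 4 lists that follow were called lower together, and 2 without control replicate 2, against 35 with all libraries. The summed level of the targets was 2879 and 4009 TPM in control and 405 and 453 TPM in fusion libraries. Summed markers of mature oligodendrocytes were 71.9 and 138 TPM against 16.4 and 15.7 TPM. Cldn11 was the largest part of the control sums, with 54.0 and 103 TPM against 13.7 and 6.81 TPM. Mog and Opalin were listed at 0 in both fusion libraries. Opalin had only 0.187 and 0.254 TPM in control libraries and was not tested. Aspa, also not tested, had 6.45 TPM in fusion replicate 2 and at most 0.629 TPM in the other libraries, so its groups overlapped.

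Cnp, an enzyme of myelin, had 406 and 712 TPM in control and 17.1 and 19.2 TPM in fusion libraries (log2 change -4.82, adjusted p = 0.00367, limma, and -3.08 after scaling). Gjb1, a gap junction protein of oligodendrocytes, had 16.8 and 29.3 TPM against 0 and 0.152 TPM. Mbp, which compacts myelin, had 529 and 1023 TPM against 61.4 and 60.4 TPM, and Mog, a surface protein of mature myelin, had 10.8 and 10.1 TPM in control libraries and was listed at 0 for each fusion library. Cnp and Mbp were also lower after scaling (adjusted p = 0.0108 and 0.0265, limma). Gjb1 and Mog were too (adjusted p = 0.0113 and 0.0112, limma), but they were tested only through the controls, where they are high. Their calls therefore add no support.

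Dimer partners and inhibitors of the Olig factors came next. Of 10 helix-loop-helix genes 9 were tested, 6 fell (66.7%, beside 51.3% of all tested genes), 0 rose and 3 did not pass. Their median was -1.86. After scaling 0 were lower and 1 higher, beside 18.6% and 14.3% of all tested genes. Tcf4, the E protein that pairs with Olig2, had 72.1 and 127 TPM in control and 16.9 and 26.6 TPM in fusion libraries. Id3, an inhibitor of E proteins, had 75.5 and 110 TPM against 21.5 and 19.6 TPM. Hes1, the Notch effector, had 10.5 and 8.96 TPM against 20.1 and 19.8 TPM, which did not pass (log2 change 0.97, adjusted p = 0.0749, limma) and was the gene higher after scaling (2.59, adjusted p = 0.0140).

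Other Sox genes were called lower about as often as all genes. Of 8, 6 were tested, 3 fell (50%, beside 51.3%), 0 rose and 3 did not pass, with a median of -0.97. After scaling 0 were lower and 1 higher, beside 18.6% and 14.3% of all tested genes. Sox5, the other SoxD factor of precursors, had 18.4 and 34.8 TPM in control and 1.70 and 5.35 TPM in fusion libraries, a log2 change of -2.67 ± 0.61 (SE, adjusted p = 0.0166, limma) and of -1.14 after scaling (adjusted p = 0.151). Sox11, a factor of immature neural cells, had 26.1 and 20.3 TPM against 3.47 and 3.99 TPM, and Sox3 had 1.68 and 1.38 TPM against 0.340 and 0 TPM, so that Sox3 was tested through the controls alone. Sox9, the third SoxE gene, had 25.4 and 25.5 TPM against 14.7 and 13.4 TPM and did not pass (-0.82, adjusted p = 0.102), with a change of 0.86 after scaling. Sox2, a factor of neural stem cells, had 13.3 and 22.6 TPM against 48.9 and 26.6 TPM (1.01, adjusted p = 0.129), and was the gene higher after scaling (2.70, adjusted p = 0.0266).

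Among 22 other regulators of the lineage, all tested, 11 fell, 1 rose and 10 did not pass, which is near the 51.3% lower and 4.95% higher of all tested genes. Their median was -1.20. After scaling 1 was lower and 6 were higher, beside 18.6% and 14.3% of all tested genes. Chd8, among the 11 that fell, reached 1 TPM in control libraries only and so was tested through the group where it is high. Hdac1, a histone deacetylase needed for differentiation, had 100 and 121 TPM in control and 6.56 and 6.34 TPM in fusion libraries, a log2 change of -3.90 (adjusted p = 0.00367, limma) and of -2.22 after scaling (adjusted p = 0.0141). Zfp24, a zinc finger factor of myelination, had 75.7 and 84.3 TPM against 8.40 and 4.84 TPM, and Tmem98, which binds Myrf, 18.0 and 22.4 TPM against 0.404 and 3.59 TPM. Nkx6-1, a homeobox relative of Nkx6-2, was listed at 0 for each control library and reached 2.17 and 2.39 TPM with the fusion (adjusted p = 0.00471, limma). It was tested only through the group in which it is high. It passed as higher after scaling too (adjusted p = 0.0116).

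The hedgehog pathway, which induces Olig2 in the embryo, was barely expressed. Of its 7 genes 2 were tested and neither passed. After scaling 1 of the 2 was higher, Ptch1 (1.70, adjusted p = 0.0427, limma), beside 14.3% of all tested genes. The receptor Ptch1 had 3.66 and 3.25 TPM in control and 3.12 and 6.65 TPM in fusion libraries (log2 change 0.34, adjusted p = 0.584, limma). The signal transducer Smo had 2.03 and 3.18 TPM against 2.09 and 0 TPM (log2 change -1.02, adjusted p = 0.199, limma). After scaling the log2 change of Smo was 0.0185 (adjusted p = 0.989, limma). Before scaling the groups overlapped for both Ptch1 and Smo, and Shh was listed at 0 in both fusion libraries.

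**Figure D5:**
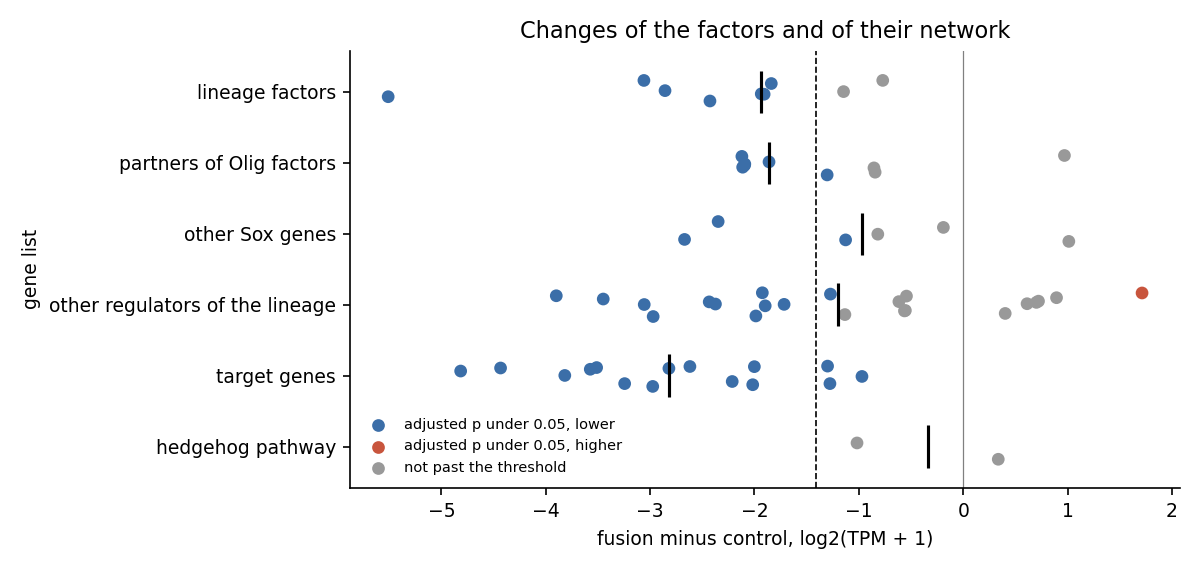
Log2 change, fusion minus control, of each tested gene of the lineage factors and of the 5 lists around them, coloured by call, with a black bar for the list median and a dashed line at the median of all tested genes, -1.41. Points are spread vertically for legibility. All 15 tested target genes were called lower, and the median of the lineage factors was -1.93.

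The 3 genes whose values were most like those of Sox6, the factor of highest mean, over the 4 libraries were Tmed4, Copz1 and Ndufa10, by Euclidean distance of log2(TPM + 1) values (0.465, 0.540 and 0.881). Tmed4 had 280 and 288 TPM in control and 4.93 and 9.0 TPM in fusion libraries.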

How the data were processed

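Live tdTomato-positive cells gave 2 control and 2 fusion RNA-seq libraries. Digestion lasted 30 min, cDNA was made with a single-cell full-length kit, and paired-end reads had 100 bp, per the labels' protocols. Whether libraries of 1 group are from different mice is not stated, so p-values cover only the spread between libraries, possibly technical.

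The authors deposited TPM per gene, and each library sums to 1000000. The submitters' processing notes name Trimmomatic 0.39, Salmon 1.8.0, GRCm38 and mm10. The annotation release was not given in the sources used here. Because TPM keeps no depth, no counting interval is given and an exact 0 is written as listed at 0.

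Values were log2(TPM + 1), and genes of at least 1 TPM in at least 2 libraries were tested with limma 3.58.1 in R 4.3.3 (eBayes with trend, 2-sided, Benjamini-Hochberg over all tested genes, threshold 0.05). A change understates that of low genes. The fit was tested on simulated data. Locations came from GENCODE M21 (GRCm38), matched by Ensembl identifier without its version, and promoters from RefSeq (GRCm38.p6).

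The factors and the lists around them were chosen with earlier results of these data known. The rule named the 10 factors, and up to 3 genes a list, those past the threshold with the largest change or, with none past it, of highest mean; not all genes so named are reported here. Hes1, Sox9, Sox2, Nkx6-1, Mbp, Mog, Erbb3, Opalin, Shh, P2ry12, Gm15966, Cerox1, Nkx2-2os and Eif2s3y were named after their values were seen. The same holds for Mgp, Foxc1, Foxd1, Syt1, Cldn11, Aspa, Ugt8a and Chd8, and for the genes given with the chromosomal neighbours. Alternatives were another pseudocount or filter, 3 other scalings (median ratio over 10965 genes, quantile, and without mitochondrially encoded and ribosomal protein genes), a GC and length correction, a replicate block, limma without trend or robust, and each library left out.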

Additional observations from a re-analysis of the deposited data

How the results depend on the processing

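Of the 9 tested factors, 6 were lower in each alternative that could be fitted (Sox10, Sox8, Sox6, Myrf, Tcf7l2 and Zfp488), and the sign turned in 10 of 143 factor values. Of these, Myrf was tested only through the controls, where it is high. Olig1 turned to 0.61 with median ratio scaling, 0.35 with quantile normalization and 0.67 with the GC and length correction, with or without the replicate block. Olig2 turned to 0.96, 1.00 and 1.11 under the same settings, Sox9 to 0.86, 0.93 and 0.77 and Smo to 0.0185, 0.35 and 0.48. Nkx2-2 was 0.27 under the GC and length correction, with or without the block, Pdgfra to 0.46 with median ratio scaling, Sox3 to 0.10 with quantile normalization and Ptch1 to -0.11 without fusion replicate 2 (and 0.78 without fusion replicate 1). The 7 factors called lower became 1 with median ratio scaling, quantile normalization, the GC and length correction, and that correction with the replicate block, and 1 to 9 with 1 library left out. Over all genes, 6606 lower calls became 2396, 1955, 2117 and 2461 in that order and 1025 to 7987 with 1 library left out, and 637 higher calls became 1846, 1948, 1766 and 2075, and 14 to 1084. Higher calls were also 353 with no filter, 405 with a mean of at least 5 TPM and 965 without mitochondrially encoded and ribosomal protein genes. In the 5 lists around the factors, 35 lower calls became 8, 8, 11 and 11, and 2 to 37, and 22 with no filter or without mitochondrially encoded and ribosomal protein genes. The 1 higher call became 9, 8, 8 and 9, and 0 to 4, and was 0 with a mean of at least 5 TPM and 3 without mitochondrially encoded and ribosomal protein genes. The correction subtracts its whole fit, so it also takes out the shift common to a library. A lone library was assumed to vary like the other group, and other causes were not tested. Replicate numbers are shared by the groups, but no label says that they pair libraries, and deviations of same-numbered libraries correlated at -0.04. The replicate block ended the call of Pdgfra (adjusted p = 0.0563). The block alone gave 6978 lower and 642 higher genes, 7 lower factors, and 33 lower and 1 higher in the lists. Depth is unknown, which limits what can be said of genes near 0, such as Nkx6-2.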

Other observations

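Within 500000 bp of Olig1 and Olig2, 20 other genes were tested, of which 11 fell, 1 rose (Gm15966) and 8 did not pass, with a median log2 change of -1.51 (limma), near the 51.3% lower and the median of -1.41 over all tested genes. After median ratio scaling 4 were lower, 1 was higher and 15 did not pass, beside 18.6% lower and 14.3% higher over all tested genes. Gart, an enzyme of purine synthesis, had 42.2 and 54.0 TPM in control and 3.10 and 3.64 TPM in fusion libraries. Ifnar1, an interferon receptor subunit, had 10.4 and 12.5 TPM against 2.03 and 3.89 TPM, and Ifngr2, of the interferon gamma receptor, had 4.67 and 4.14 TPM against 2.47 and 2.93 TPM and did not pass (adjusted p = 0.288, limma).

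Around Sox6, 7 genes were tested, of which 3 fell, 2 rose and 2 did not pass, beside 51.3% lower and 4.95% higher over all tested genes. Their median was -0.69. Among the 2 that rose, Gm44867 was listed at 0 in both controls, with 2.92 and 4.35 TPM in fusion libraries. It was tested only through the group in which it is high. After scaling 0 of the 7 were lower, 3 higher and 4 not past the threshold, with a median of 0.74. Over all tested genes 18.6% were then lower and 14.3% higher. The nearest, 1110004F10Rik, lies 601 bp away and had 608 and 537 TPM in control and 109 and 177 TPM in fusion libraries, a log2 change of -2.03 (adjusted p = 0.00983, limma) and of -0.27 after scaling (adjusted p = 0.479). Beside Myrf, at 448 bp, Tmem258 had 610 and 582 TPM in control and 2454 and 1480 TPM in fusion libraries, a rise of 1.68 on the log2 scale (adjusted p = 0.0195, limma) and of 3.45 after scaling (adjusted p = 0.0132).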
